A study of Homo sapiens with 9 samples.

Results

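The transcriptional output layer of the Hippo pathway is described here through 10 genes in RNA-seq counts of MDA-MB-231 cells, a human triple-negative breast cancer line. The genes are the coactivators YAP1 and WWTR1 (the gene of TAZ), the DNA-binding factors TEAD1, TEAD2, TEAD3 and TEAD4, and the target genes CCN1, CCN2, ANKRD1 and AMOTL2. They were taken by symbol from the gene column of the count table, which gave 10 of 60649 genes listed, and all 10 had enough reads to be tested.

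The study asked what loss of the aryl hydrocarbon receptor, encoded by AHR, does to these cells. The control group carried the lentiviral vector pLKO-GFP, and the other groups carried a lentiviral hairpin against AHR, labelled shAHR#2 or shAHR#3 (the study's text numbers its constructs differently, and which is which is not given). All 3 groups were the same line, grown in serum, transduced and selected with puromycin, and the surviving cells were pooled, so each group is a mixed population of selected survivors and not a clone. The treatment label of every library reads proliferation. Each group had 3 libraries, made from 500 ng of RNA by poly(A) selection with a stranded kit, and nothing in the labels says that the replicates were separate cultures, so that p-values measure only the spread between these samples, which may be technical. Total counts ran from 17407688 to 19509030 in pLKO-GFP, from 15991396 to 19112459 in shAHR#2 and from 19436825 to 20374460 in shAHR#3. Within a group, all pairs of libraries differed by more than counting noise, and pLKO-GFP replicate 2 (chi-square per degree of freedom over genes 3.59 and 3.97 against the other replicates, which stood at 1.79 from each other) and shAHR#3 replicate 3 (3.54 and 3.15 against 1.86) stood further from their groups; member calls that change without them are named with each result.

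In the Hippo pathway a kinase cascade of MST and LATS kinases phosphorylates YAP and TAZ, which holds them in the cytoplasm or marks them for degradation. When the cascade is low, YAP and TAZ enter the nucleus and bind TEAD factors, which sit on DNA and switch on genes of growth, adhesion and matrix. This control acts mainly on the proteins, which RNA counts do not measure, and MDA-MB-231 is known for high YAP and TAZ activity.

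AHR itself was low in every hairpin library. In CPM, the reads per gene relative to library size after TMM scaling, it stood at 114, 118 and 121 in pLKO-GFP, at 42.5, 40.4 and 41.9 in shAHR#2 and at 46.3, 52.1 and 44.5 in shAHR#3. No hairpin library reached a control library. In edgeR's quasi-likelihood (QL) test, with p-values adjusted over 14274 tested genes by the method of Benjamini and Hochberg, AHR fell by 1.501 on the log2 scale with shAHR#2 (SE 0.048, adjusted p = 1.05e-25) and by 1.31 with shAHR#3 (SE 0.046, adjusted p = 4.95e-24). Between the constructs it was 0.19 higher in shAHR#3 (edgeR adjusted p = 0.00283), a call that was lost without shAHR#3 replicate 2 (0.13, adjusted p = 0.0604). AHR shares 29.5% of its exon bases with another annotated gene on the same strand, which had 0 reads, and 6.11% with a long noncoding RNA on the opposite strand, which had 5 to 21. How reads in shared bases were counted is not known here, so these counts cannot show whether reads of AHR were lost. A gene is said below to rise or fall where this adjusted p was under 0.05.

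Markers of the line were checked next. VIM, CD44, KRT8 and KRT18 were all present, with a summed level of 4010 to 4070 CPM in pLKO-GFP, 5120 to 5230 in shAHR#2 and 4610 to 4710 in shAHR#3, VIM having the most reads. The genes of that sum moved apart: VIM rose by 0.56 with shAHR#2 and by 0.34 with shAHR#3, CD44 fell by 0.23 and by 0.49, and KRT8 and KRT18 rose only with shAHR#3, by 0.40 and by 0.31 (with shAHR#2 they differed by 0.038 and -0.019, edgeR adjusted p = 0.268 and 0.559). Of the genes that a triple-negative mesenchymal-like line should lack, PGR had no read in any library, which allows up to 3 reads per library by counting error. ESR1 had at most 4 reads, and CDH1 had the most reads. The summed level over the 3 genes was 0.699 to 1.07 CPM in pLKO-GFP, 1.64 to 2.36 in shAHR#2 and 3.89 to 4.64 in shAHR#3. CDH1 rose by 0.997 with shAHR#2 (edgeR adjusted p = 0.00165) and by 2.19 with shAHR#3 (edgeR adjusted p = 2.47e-10). Among markers of leukocytes and endothelium, CD3E had no read, PECAM1 rose with both hairpins (by 2.22 and 2.35 on the log2 scale), PTPRC had 1 to 4 reads in control and 14 to 33 in the hairpin libraries, and VWF had 0 in control and 4 to 9 in the hairpin libraries. PTPRC had enough reads to be tested only through the hairpin groups, so its counts are given with no test. Their summed level was 2.77, 2.35 and 2.43 CPM in pLKO-GFP, 12.0, 14.1 and 12.6 in shAHR#2 and 12.8, 13.5 and 14.2 in shAHR#3, PECAM1 having the most reads. The part of these marker shifts in the results was not tested. In bulk RNA, fewer cells of a type and less RNA per cell cannot be told apart.

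The members lie on several chromosomes (GRCh38, GENCODE 44). YAP1 is on chromosome 11 (102110447 to 102233424) and TEAD1 on the same chromosome (12674421 to 12944737). WWTR1 (149517235 to 149736714) and AMOTL2 (134355347 to 134375479) are on chromosome 3, and TEAD3 (35473597 to 35497079) and CCN2 (131948176 to 131951372) on chromosome 6. TEAD2 is on chromosome 19 (49340595 to 49362457), TEAD4 on chromosome 12 (2959330 to 3040676), CCN1 on chromosome 1 (85580761 to 85584589) and ANKRD1 on chromosome 10 (90912096 to 90921087). Whole chromosomes differed in their median log2 fold change with shAHR#2 and shAHR#3. It was 0.126 and 0.0881 on chromosome 3 (WWTR1, AMOTL2), 0.223 and 0.172 on chromosome 12 (TEAD4), 0.107 and 0.103 on chromosome 19 (TEAD2) and -0.32 and -0.152 on chromosome 10 (ANKRD1). On chromosomes 1, 6 and 11 it lay between -0.062 and 0.015 with both. The part of these shifts in the members' changes was not tested.

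Promoter windows were searched for the letters that TEADs read. RefSeq (GRCh38.p14) gave promoter entries for 7 of the 10 members, 10 entries in all, and CCN1, TEAD1 and TEAD4 had none. The 250 bases before each start were searched on both strands for GGAATG, the core of the TEAD (M-CAT) element, for GCGTG, the core of the AHR element, and for TGANTCA, the AP-1 element, and no match overlapped another. Shown are the windows of the 3 targets with a GGAATG match, to let the matches be read in place; all are on the minus strand, written 5′ to 3′, with GGAATG or its reverse complement CATTCC in capitals. The windows are CCN2 at chr6:131951373-131951622, ANKRD1 at chr10:90921088-90921337 and the second listed start of AMOTL2 at chr3:134374448-134374697.
CCN2: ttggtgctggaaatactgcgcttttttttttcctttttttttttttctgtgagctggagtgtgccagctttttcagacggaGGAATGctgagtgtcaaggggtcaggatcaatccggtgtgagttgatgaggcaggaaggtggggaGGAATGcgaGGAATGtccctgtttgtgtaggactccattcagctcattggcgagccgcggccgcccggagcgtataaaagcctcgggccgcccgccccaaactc
ANKRD1: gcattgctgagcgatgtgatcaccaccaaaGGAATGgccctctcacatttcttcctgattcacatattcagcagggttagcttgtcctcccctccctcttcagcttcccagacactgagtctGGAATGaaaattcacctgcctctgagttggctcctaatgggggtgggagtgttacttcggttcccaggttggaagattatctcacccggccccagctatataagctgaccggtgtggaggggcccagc
AMOTL2: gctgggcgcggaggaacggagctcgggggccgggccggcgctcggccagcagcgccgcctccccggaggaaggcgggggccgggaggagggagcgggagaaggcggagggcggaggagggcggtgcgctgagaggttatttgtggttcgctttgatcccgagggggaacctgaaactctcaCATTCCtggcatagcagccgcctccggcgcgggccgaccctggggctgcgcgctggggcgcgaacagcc
CCN2 held 3 matches, beginning 169, 104 and 95 bases before the start, where 11.9% of 35116 promoter windows of this length held at least 1 and 0.083% held 3 or more. ANKRD1 held 2, beginning 220 and 128 bases before the start, where 0.94% of windows held 2 or more, and also 1 TGANTCA match 195 bases before it, which 6.57% of windows hold. AMOTL2 held 1 match on the reverse strand 69 bases before its second start, and none before its first. YAP1 held 1 match 162 bases before its start. GCGTG was found in 1 member window, before the second listed start of WWTR1 at 172 bases on the reverse strand, and in 32.2% of all windows. These are letters in the windows and no measure of binding.

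The coactivator genes parted, with WWTR1 up and YAP1 slightly down. WWTR1, whose protein TAZ binds TEADs as YAP does, stood at 217, 222 and 217 CPM in pLKO-GFP, at 359.6, 361 and 355 in shAHR#2 and at 252, 254 and 237 in shAHR#3. Every shAHR#2 library lay above every shAHR#3 library, and these above every control library, with no overlap. The level rose by 0.71 on the log2 scale with shAHR#2, 1.64-fold (SE 0.029, edgeR adjusted p = 1.33e-22), and by 0.18 with shAHR#3, 1.13-fold (SE 0.029, edgeR adjusted p = 2.04e-06). YAP1 stood at 346, 364 and 364 CPM in pLKO-GFP, at 340.1, 336 and 333 in shAHR#2 and at 328, 331 and 323 in shAHR#3. All control libraries lay above all hairpin libraries, by a small margin. YAP1 fell by 0.089 with shAHR#2 (SE 0.027, edgeR adjusted p = 0.00424) and by 0.13 with shAHR#3 (SE 0.027, edgeR adjusted p = 9.87e-05), to 0.94 and 0.915 of control. Set against all tested genes, 79.1% changed less than WWTR1 and 15.2% less than YAP1 with shAHR#2, and 40.9% and 30.4% with shAHR#3.

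Within each library the WWTR1 level per kilobase was set against that of YAP1, which removes differences in scaling. The ratio was 0.462 ± 0.012 (SD, n = 3) in pLKO-GFP, 0.805 ± 0.0064 in shAHR#2 and 0.571 ± 0.015 in shAHR#3. The 3 groups did not overlap, and YAP1 was the more abundant of the pair per kilobase in all 9 libraries with the union of exons as length. With the longest annotated transcript as length, the mean RPKM in shAHR#2 was 71.2 for WWTR1 and 62.3 for YAP1, so that order rests on the length used. Both genes share exon bases with a long noncoding RNA on the opposite strand (9.95% for YAP1, 9.05% for WWTR1 with WWTR1-AS1), and those RNAs were counted at no more than 4 and 8 reads.

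**Figure D1:**
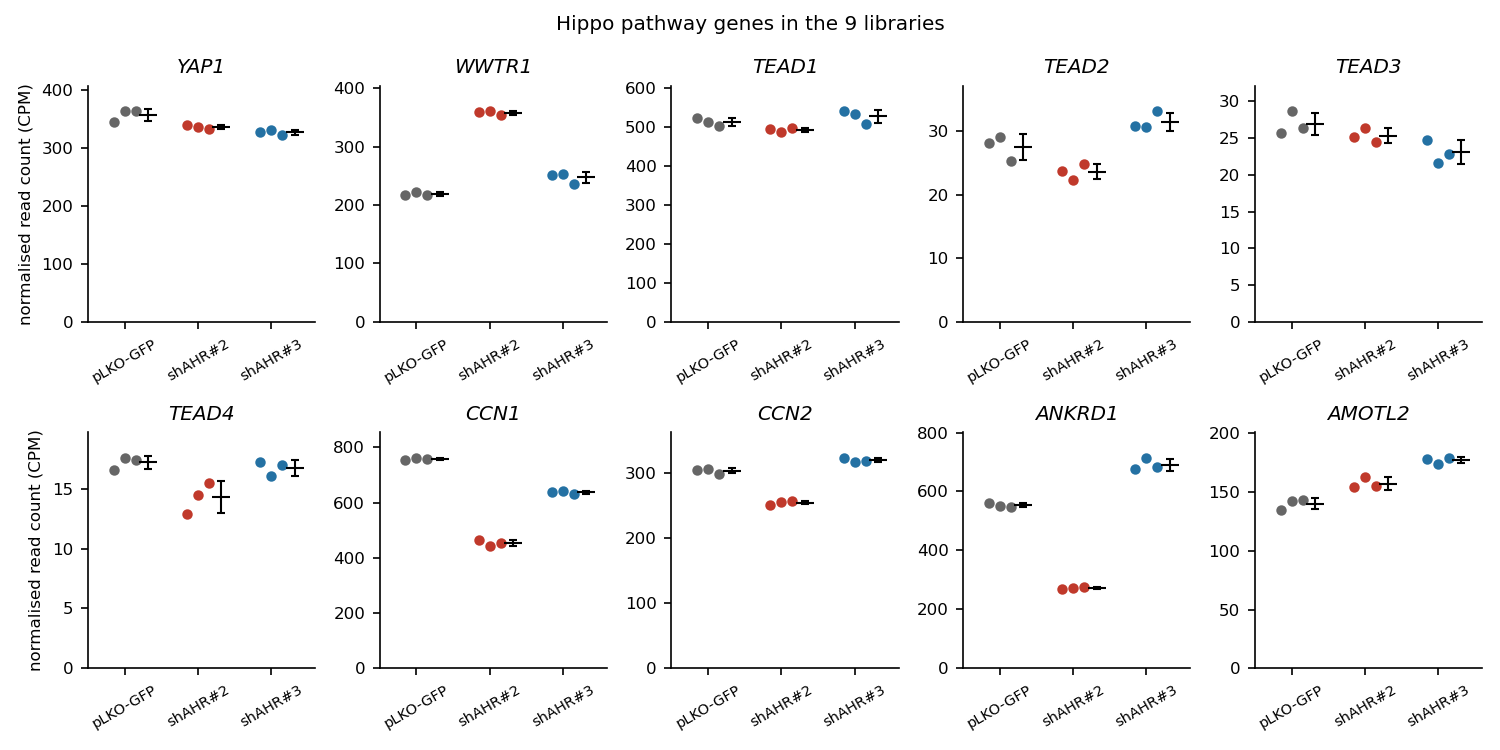
TMM-scaled CPM of the 10 members in each of the 9 libraries, grouped as pLKO-GFP, shAHR#2 and shAHR#3, with the group mean and SD. ANKRD1 lies between 270.5 and 275 CPM in the shAHR#2 libraries and between 548.5 and 562 in the control libraries, and WWTR1 lies highest in shAHR#2.

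The TEAD genes differed less than WWTR1, CCN1 or ANKRD1 with shAHR#2. TEAD1, the family member with the highest level per kilobase here, stood at 524, 514 and 503 CPM in pLKO-GFP, at 495, 488 and 498 in shAHR#2 and at 541, 534 and 509.7 in shAHR#3. The shAHR#2 libraries lay just below the control libraries, and the shAHR#3 libraries overlapped them. Neither difference passed the test in edgeR, at -0.057 with shAHR#2 (95% interval -0.11 to -0.0036, adjusted p = 0.0559) and 0.041 with shAHR#3 (-0.012 to 0.094, adjusted p = 0.192). TEAD1 was close to the threshold: it passed with shAHR#2 without pLKO-GFP replicate 3 (-0.073, edgeR adjusted p = 0.0336) or without shAHR#3 replicate 3 (-0.057, adjusted p = 0.0281), and with shAHR#3 without shAHR#3 replicate 3 (0.066, adjusted p = 0.028). It also passed with shAHR#2 when only the groups compared entered the fit (-0.056, edgeR adjusted p = 0.035).

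TEAD2, which is best known from early development, went opposite ways with the constructs. Its levels were 28.1, 29.1 and 25.3 CPM in pLKO-GFP, 23.65, 22.35 and 24.8 in shAHR#2 and 30.7, 30.55 and 33.1 in shAHR#3. The groups did not overlap, with shAHR#2 lowest and shAHR#3 highest. TEAD2 fell by 0.22 with shAHR#2 (SE 0.071, edgeR adjusted p = 0.00693) and rose by 0.20 with shAHR#3 (SE 0.066, edgeR adjusted p = 0.0122). The fall lost its call without pLKO-GFP replicate 2 (-0.18, adjusted p = 0.0547), and the rise lost it without pLKO-GFP replicate 3 (0.14, adjusted p = 0.117) or without shAHR#3 replicate 3 (0.16, adjusted p = 0.0651). TEAD2 shares 10.7% of its exon bases with CD37 on the opposite strand, which had at most 2 reads.

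TEAD3 stood at 25.7, 28.7 and 26.4 CPM in pLKO-GFP, at 25.15, 26.4 and 24.4 in shAHR#2 and at 24.8, 21.65 and 22.9 in shAHR#3. The shAHR#3 libraries lay below all control libraries, while shAHR#2 overlapped both groups. TEAD3 fell by 0.22 with shAHR#3 (SE 0.07, edgeR adjusted p = 0.0071), a call lost without pLKO-GFP replicate 2 (-0.17, adjusted p = 0.0656) or without shAHR#3 replicate 2 (-0.18, adjusted p = 0.0505), and with shAHR#2 it differed by -0.091 (95% interval -0.23 to 0.053, adjusted p = 0.264). TEAD4, a factor that many cancer lines express, stood at 16.6, 17.6 and 17.4 CPM in pLKO-GFP, at 12.9, 14.5 and 15.5 in shAHR#2 and at 17.2, 16.0 and 16.9 in shAHR#3. The shAHR#2 libraries were the lowest and shAHR#3 overlapped control. TEAD4 fell by 0.27 with shAHR#2 (SE 0.085, edgeR adjusted p = 0.00534), a call lost without shAHR#2 replicate 1 (-0.19, adjusted p = 0.0774), and with shAHR#3 it differed by -0.041 (95% interval -0.21 to 0.12, edgeR adjusted p = 0.695).

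Of the summed TEAD level per kilobase, TEAD1 made up 65.2% ± 0.99 (SD, n = 3) in pLKO-GFP, 67.2% ± 0.64 in shAHR#2 and 65.9% ± 1.27 in shAHR#3. The TEAD1 share in the shAHR#2 libraries lay slightly above that of all control libraries, and in shAHR#3 it overlapped control. TEAD2 made up 12.5% ± 0.63 in pLKO-GFP, 11.5% ± 0.48 in shAHR#2 and 14.1% ± 0.85 in shAHR#3. The shAHR#3 libraries lay above all others, and shAHR#2 overlapped control. TEAD3 made up 12.0% ± 0.60 in pLKO-GFP, 12.1% ± 0.61 in shAHR#2 and 10.1% ± 0.54 in shAHR#3. Its share in shAHR#3 lay below all others, and shAHR#2 overlapped control. TEAD4 made up 10.3% ± 0.41 in pLKO-GFP, 9.15% ± 0.76 in shAHR#2 and 9.82% ± 0.32 in shAHR#3. Its share in shAHR#2 lay below all control libraries, and shAHR#3 overlapped control.

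Among the targets, CCN1 fell and AMOTL2 rose with both constructs, while CCN2 and ANKRD1 each fell with shAHR#2 and rose with shAHR#3. CCN1 (formerly CYR61) and CCN2 (formerly CTGF) encode secreted matrix proteins that are standard readouts of YAP and TAZ. CCN1 stood at 755, 762 and 756.5 CPM in pLKO-GFP, at 464, 442 and 452 in shAHR#2 and at 637, 642 and 631 in shAHR#3. Control libraries were the highest, shAHR#3 intermediate and shAHR#2 the lowest, with no overlap. CCN1 fell by 0.74 with shAHR#2, to 0.598 of control (SE 0.025, edgeR adjusted p = 6.06e-25), and by 0.25 with shAHR#3, to 0.84 of control (SE 0.025, edgeR adjusted p = 4.28e-11).

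CCN2 stood at 305, 305.5 and 298 CPM in pLKO-GFP, at 251, 255 and 256 in shAHR#2 and at 323, 316 and 318.5 in shAHR#3. The shAHR#2 libraries were below and the shAHR#3 libraries slightly above all control libraries. CCN2 fell by 0.25 with shAHR#2 (SE 0.027, edgeR adjusted p = 1.62e-10) and rose by 0.076 with shAHR#3 (SE 0.026, edgeR adjusted p = 0.0133), and the latter call was lost without pLKO-GFP replicate 3 (0.065, adjusted p = 0.0665). Of all tested genes, 40.7% changed less than CCN2 with shAHR#2 and 18.5% with shAHR#3. CCN2 shares 11.9% of its exon bases with LINC01013 on the opposite strand, which had at most 1 read.

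ANKRD1, which encodes a nuclear and sarcomeric ankyrin-repeat protein, had the largest fitted change among the members with shAHR#2. Its levels were 562, 551 and 548.5 CPM in pLKO-GFP, 270.5, 272 and 275 in shAHR#2 and 675, 714 and 683 in shAHR#3. All shAHR#2 libraries lay far below control and all shAHR#3 libraries above it. ANKRD1 fell by 1.02 with shAHR#2, to 0.492 of control (SE 0.027, edgeR adjusted p = 1.91e-28), and rose by 0.32 with shAHR#3, 1.25-fold (SE 0.025, edgeR adjusted p = 1.86e-13). Of all tested genes, 88.5% changed less than ANKRD1 with shAHR#2 and 62.9% with shAHR#3.

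AMOTL2, both a target and a scaffold of the angiomotin family that holds YAP back, rose with both constructs. Its levels were 135, 143 and 143 CPM in pLKO-GFP, 154, 163 and 155 in shAHR#2 and 178, 174 and 179 in shAHR#3. All libraries of both hairpin groups lay above control, those of shAHR#3 the highest. AMOTL2 rose by 0.16 with shAHR#2 (SE 0.033, edgeR adjusted p = 4.88e-05) and by 0.34 with shAHR#3 (SE 0.033, edgeR adjusted p = 2.86e-11). Its exons overlap the pseudogene RPL39P5 on the same strand over 2.89% of their bases, and that gene had at most 4 reads.

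**Figure D2:**
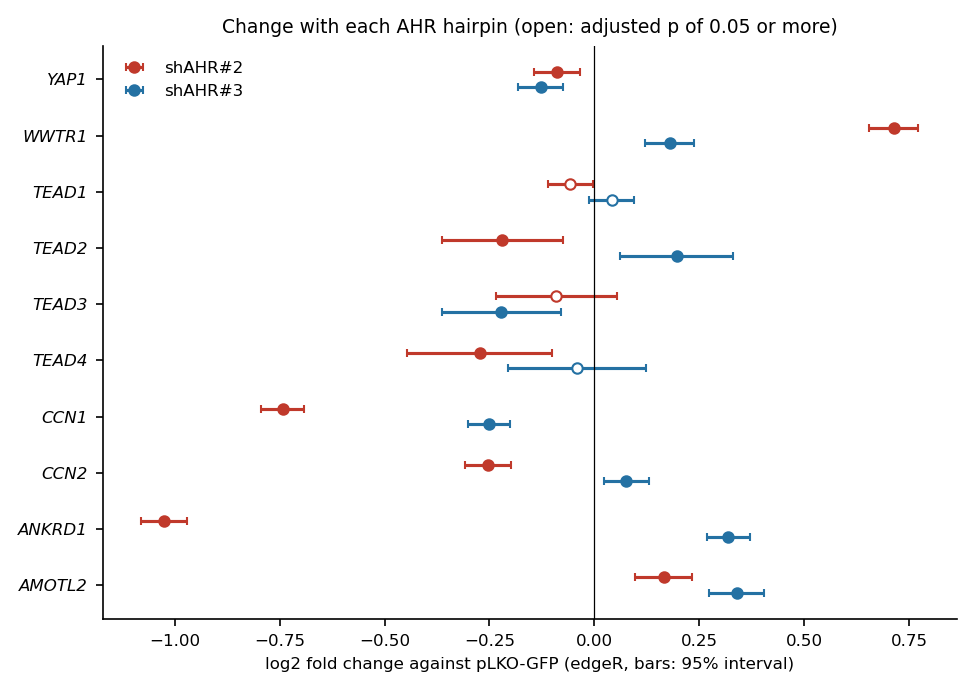
The log2 fold change of each member with shAHR#2 and with shAHR#3 against pLKO-GFP, with 95% intervals from edgeR. ANKRD1 runs from -1.02 with shAHR#2 to 0.32 with shAHR#3, and WWTR1, AMOTL2, YAP1 and CCN1 passed with the same sign with both; open points did not pass.

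Counted over the members, 8 of 10 passed the edgeR test with shAHR#2, 2 higher and 6 lower, where 65.8% of all tested genes passed (32.6% higher and 33.2% lower). Passing was therefore near the background and is not a result about the members. With shAHR#3, 8 of 10 passed, 5 higher and 3 lower, where 54.4% of all tested genes passed (26.9% higher and 27.5% lower); without pLKO-GFP replicate 3 the number higher was 3. Whether the members differ in this from other genes was not tested. The median of the members' log2 fold changes was -0.15 with shAHR#2 and 0.058 with shAHR#3, against -0.0032 and -6.9e-05 over all tested genes. For the mean of both constructs, 7 of 10 passed, 2 higher (WWTR1, AMOTL2) and 5 lower (YAP1, TEAD3, CCN1, CCN2, ANKRD1), where 64.3% of all genes passed (31.5% higher and 32.9% lower). Of these the TEAD3 call (-0.16, edgeR adjusted p = 0.0233) was lost in DESeq2 (-0.15, adjusted p = 0.0503), without pLKO-GFP replicate 2 (-0.11, adjusted p = 0.189) and without shAHR#3 replicate 2 (-0.13, adjusted p = 0.0568). These comparisons share the 3 control libraries, so their values are set side by side and not treated as independent.

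By construct, 2 members rose with both (WWTR1, AMOTL2), 2 fell with both (YAP1, CCN1), and 3 passed in opposite directions (TEAD2, CCN2, ANKRD1). Without pLKO-GFP replicate 3, ANKRD1 was the 1 member left passing in opposite directions, since TEAD2 (0.14, edgeR adjusted p = 0.117) and CCN2 (0.065, adjusted p = 0.0665) no longer passed with shAHR#3. Without shAHR#3 replicate 3, TEAD2 dropped out (0.16, adjusted p = 0.0651 with shAHR#3) and TEAD1 passed in opposite directions (-0.057, adjusted p = 0.0281, and 0.066, adjusted p = 0.028). Without pLKO-GFP replicate 2, TEAD2 dropped out (-0.18, adjusted p = 0.0547 with shAHR#2). With all libraries, TEAD4 passed with shAHR#2 and not with shAHR#3, TEAD3 with shAHR#3 and not with shAHR#2, and TEAD1 with neither. For TEAD3 the constructs themselves differed by -0.13 (shAHR#3 minus shAHR#2, 95% interval -0.28 to 0.015, edgeR adjusted p = 0.145), which did not pass. Of all 14274 tested genes, 21.9% rose with both, 22.6% fell with both, 2.03% (290) passed in opposite directions, 19.3% passed only with shAHR#2, 7.93% only with shAHR#3 and 26.3% with neither. With 10 members and the control libraries shared, these counts are a description.

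Comparing the constructs directly, 8 of 10 members passed between shAHR#3 and shAHR#2, 7 higher and 1 lower in shAHR#3, where 42.3% of tested genes passed (21.9% higher and 20.4% lower). ANKRD1 was 1.34 higher on the log2 scale in shAHR#3 (SE 0.027, edgeR adjusted p = 3.96e-31), CCN1 0.49 higher (SE 0.025, edgeR adjusted p = 1.25e-18) and CCN2 0.33 higher (SE 0.027, edgeR adjusted p = 5.62e-13). WWTR1 was the 1 lower member, at -0.53 (SE 0.028, edgeR adjusted p = 3.47e-18). Of all tested genes, 97.8% differed less than ANKRD1 between the constructs. The difference for TEAD4 (0.23, edgeR adjusted p = 0.026) was lost without shAHR#2 replicate 1 (0.15, adjusted p = 0.235), without shAHR#2 replicate 2 (0.24, adjusted p = 0.052), without shAHR#3 replicate 1 (0.21, adjusted p = 0.0753), without shAHR#3 replicate 3 (0.22, adjusted p = 0.0568) and in DESeq2 (adjusted p = 0.0702).

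Within a library, the targets also shifted against each other. The per-kilobase ratio of CCN1 to CCN2 was 1.58 ± 0.019 (SD, n = 3) in pLKO-GFP, 1.13 ± 0.038 in shAHR#2 and 1.26 ± 0.0199 in shAHR#3. ANKRD1 to CCN2 was 2.39 ± 0.029 in pLKO-GFP, 1.40 ± 0.008 in shAHR#2 and 2.83 ± 0.11 in shAHR#3. YAP1 to AMOTL2, a coactivator against its scaffold, was 2.62 ± 0.011 in pLKO-GFP, 2.20 ± 0.079 in shAHR#2 and 1.897 ± 0.049 in shAHR#3. None of these 3 ratios overlapped between groups, so CCN1 lost ground to CCN2 with both hairpins while ANKRD1 lost ground with shAHR#2 and gained it with shAHR#3. How often levels or ratios of other genes separate the groups was not counted, so lack of overlap is given only as a description.

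**Figure D3:**
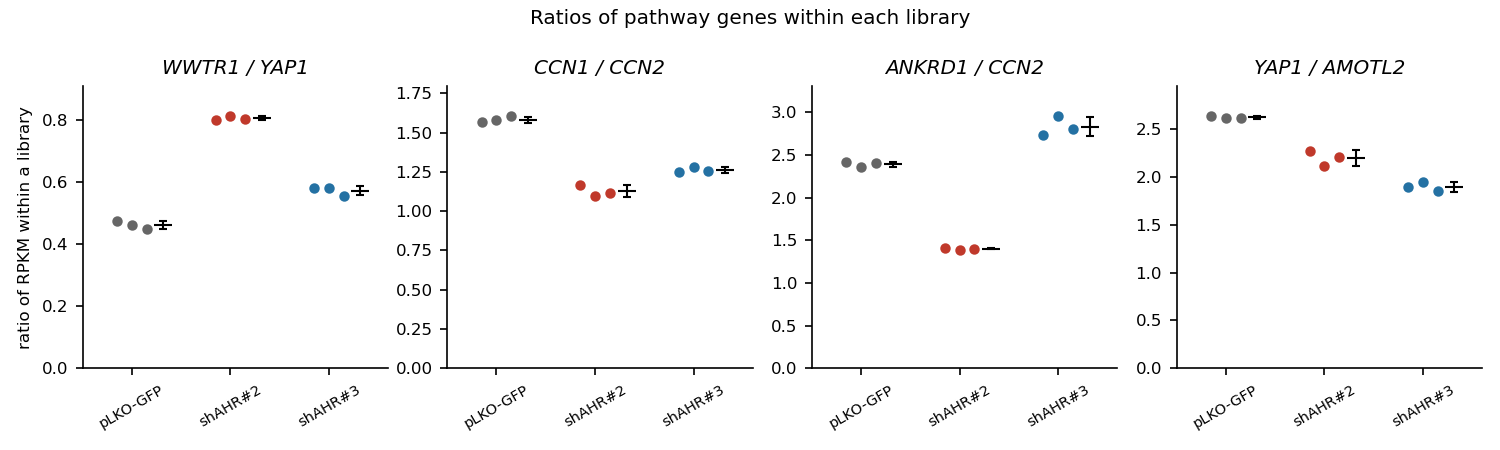
Per-kilobase ratios of pairs of members within each library, by group, with group mean and SD. The WWTR1 to YAP1 ratio is near 0.462 in pLKO-GFP and 0.805 in shAHR#2, and the ANKRD1 to CCN2 ratio is near 2.39 and 1.40; YAP1 to AMOTL2 is lower in both hairpin groups.

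Summed, the 10 members took 0.296%, 0.301% and 0.295% of all counts in the pLKO-GFP libraries, 0.234%, 0.232% and 0.233% in shAHR#2 and 0.301%, 0.303% and 0.297% in shAHR#3. The shAHR#2 libraries lay below all others, and shAHR#3 overlapped control. CCN1, CCN2 and ANKRD1 together took 0.163% to 0.166% in pLKO-GFP, 0.0944% to 0.0962% in shAHR#2 and 0.163% to 0.167% in shAHR#3.

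Levels between genes can be set side by side only per kilobase of exon (RPKM). In pLKO-GFP the RPKM order was ANKRD1 at 309.5 ± 4.03 (SD, n = 3), CCN1 at 205 ± 1.09, CCN2 at 129.5 ± 1.68, YAP1 at 56.7 ± 1.62, TEAD1 at 48.0 ± 1.01, WWTR1 at 26.2 ± 0.37, AMOTL2 at 21.6 ± 0.71, TEAD2 at 9.22 ± 0.66, TEAD3 at 8.83 ± 0.51 and TEAD4 at 7.56 ± 0.23. In RPKM, ANKRD1 exceeded 99.6% of tested genes, CCN2 98.7% and TEAD4 64.5%. Ranges of neighbours in this pLKO-GFP order overlapped only for TEAD2 and TEAD3. In shAHR#2 the RPKM of ANKRD1 was 152 ± 1.16 and that of WWTR1 42.9 ± 0.386, next to TEAD1 at 46.1 ± 0.5, and TEAD3 stood above TEAD2 with overlapping ranges. In shAHR#3 the order was that of pLKO-GFP, and the RPKM ranges of TEAD3 and TEAD4 overlapped. The order partly rests on length: with the longest annotated transcript, WWTR1 ranked 4 in shAHR#2 in place of 6, and TEAD4 stood above TEAD3 in pLKO-GFP. At that length the RPKM of WWTR1 in pLKO-GFP was 43.4 in place of 26.2.

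**Figure D4:**
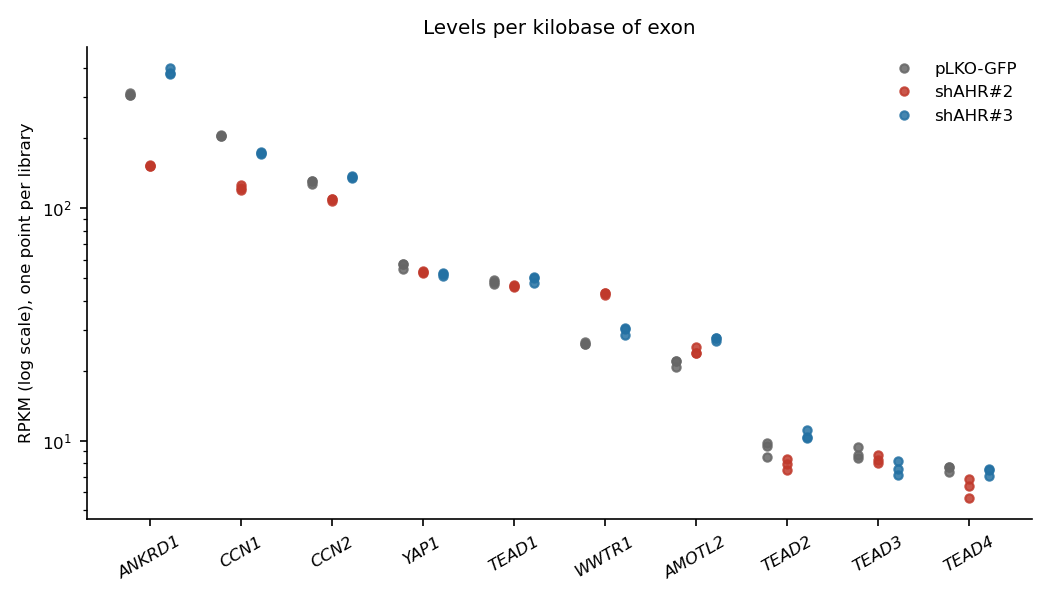
RPKM of each member on a log axis, 1 point per library, coloured by group. ANKRD1, CCN1 and CCN2 are the highest in every group, the lowest point being 107 RPKM for CCN2 in shAHR#2, and TEAD2, TEAD3 and TEAD4 are the lowest.

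The kinase core and its regulators, which act above YAP and TAZ, moved both ways. Of 16 genes, all tested, 9 rose and 6 fell with shAHR#2 and 7 rose and 6 fell with shAHR#3, where 65.8% and 54.4% of all tested genes passed in either direction. MAP4K4, a kinase that feeds into LATS, rose by 0.92 with shAHR#2 (SE 0.027) and by 0.22 with shAHR#3 (SE 0.027), and SAV1, the scaffold of the MST kinases, by 0.29 (SE 0.042) and 0.66 (SE 0.04). TAOK1, a kinase above MST, rose by 0.50 (SE 0.028) and by 0.35 (SE 0.028). WWC1 (KIBRA) fell by 1.27 (SE 0.059) and by 0.69 (SE 0.054), and STK3, the kinase MST2, fell by 0.99 (SE 0.059) and by 0.37 (SE 0.054). MOB1B, a LATS coactivator, fell by 0.32 (SE 0.048) and by 0.26 (SE 0.046). WWC2 passed in opposite directions, at -0.45 (SE 0.038) and 0.10 (SE 0.035). The list's median log2 fold change was 0.17 and 0.064, beside -0.0032 and -6.9e-05 over all tested genes.

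Of 12 partners and upstream cadherins, 10 were tested, AMOT and VGLL1 having too few reads. Among the tested, 2 rose and 4 fell with shAHR#2, and 4 rose and 4 fell with shAHR#3, where 65.8% and 54.4% of all tested genes passed. The median log2 fold change was -0.22 and -0.082, against -0.0032 and -6.9e-05 over all tested genes. VGLL4, which competes with YAP for TEADs, rose by 1.10 (SE 0.043) and by 0.74 (SE 0.044), and LIMD1, a LIM protein related to AJUBA, by 0.28 (SE 0.039) and by 0.41 (SE 0.038). AJUBA, a LIM protein that holds back LATS, fell by 1.096 (SE 0.035) and by 0.51 (SE 0.033), and PTPN14, which also appears among the targets, fell by 0.35 (SE 0.029) and by 0.31 (SE 0.029). FAT4, an atypical cadherin, fell by 0.65 (SE 0.044) and by 0.17 (SE 0.041). LATS2 likewise stands in both the kinase list and the target list.

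Of 18 further YAP/TAZ target genes, all tested, 4 rose and 10 fell with shAHR#2, and 3 rose and 10 fell with shAHR#3. Of all tested genes, 32.6% rose and 33.2% fell with shAHR#2, and 26.9% and 27.5% with shAHR#3. The median log2 fold change of the 18 was -0.25 and -0.12, against -0.0032 and -6.9e-05 over all tested genes. With both constructs, 3 rose (NT5E, FOXF2 and DOCK5) and 7 fell, where 21.9% of all tested genes rose and 22.6% fell with both, and no gene of the list passed in opposite directions, where 2.03% of all tested genes did. FJX1, the ortholog of the fly gene four-jointed, fell by 2.15 (SE 0.083) and by 0.89 (SE 0.069), RBMS3 by 1.59 (SE 0.074) and by 0.60 (SE 0.065), and F3, tissue factor, by 1.125 (SE 0.028) and by 0.67 (SE 0.027). NT5E, the ectonucleotidase CD73, rose by 0.68 (SE 0.026) and by 0.12 (SE 0.026), FOXF2, a forkhead factor, by 0.26 (SE 0.098) and by 0.45 (SE 0.093), and DOCK5, an exchange factor for RAC, by 0.25 (SE 0.033) and by 0.19 (SE 0.032).

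**Figure D5:**
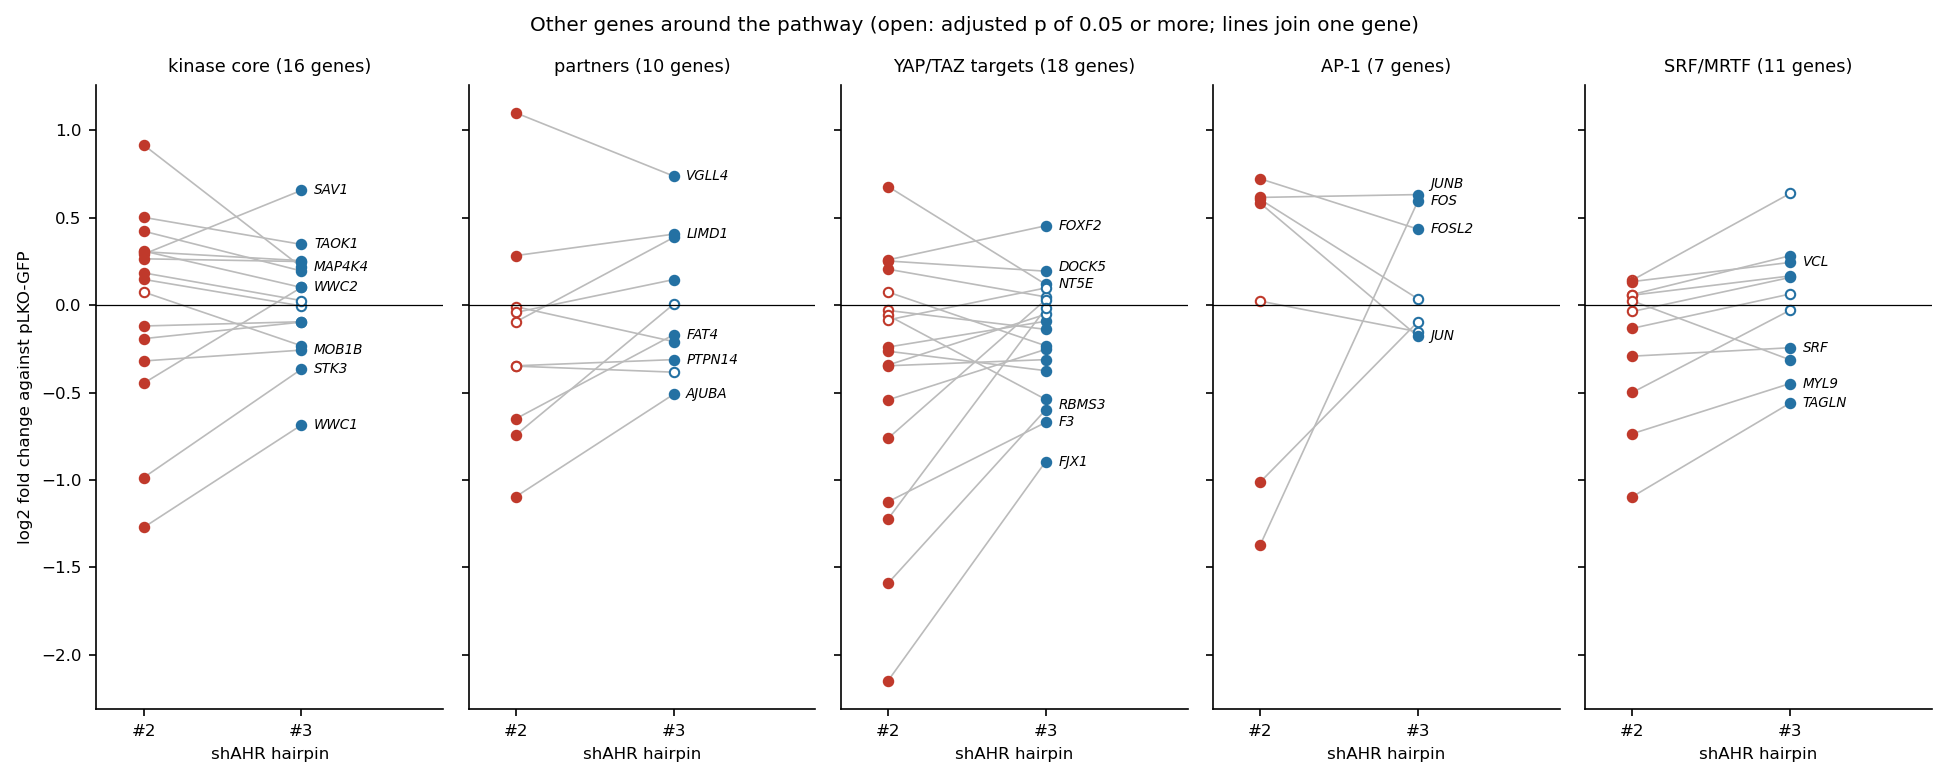
Log2 fold changes with shAHR#2 and shAHR#3 of the tested genes of 5 lists (kinase core, partners, YAP/TAZ targets, AP-1 subunits, SRF/MRTF genes), lines joining a gene and filled points marking a passed test. The further YAP/TAZ targets lie mostly below 0, with medians of -0.25 and -0.12, and the kinase core lies on both sides of 0.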

How the data were processed

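RNA-seq was run on 9 libraries, 3 per group. The authors deposited raw counts per gene for each library. Submitters' processing notes name FastQC, STAR, featureCounts, Subread and GRCh38.p13. Their versions and order, the annotation release and the strand setting are not given in the sources used here. Reads of genes overlapping on opposite strands therefore cannot be told apart. The handling of reads in bases shared by genes, on either strand, is also not known here. Low counts of an overlapping gene thus cannot show that no reads of a member were lost. Members and lists were chosen with earlier results of these data known. Counts were filtered with filterByExpr (minimum count 10, minimum total 15), which left 14274 of 60649 genes holding 99.9% of counts, scaled by TMM and tested in one edgeR quasi-likelihood fit of all 9 libraries (edgeR 4.0.16, limma 3.58.1, R 4.3.3), with Benjamini-Hochberg adjusted p-values called under 0.05; the common biological coefficient of variation was 2.96%. Counts of 0 allow 3 reads, covering counting error only. Lengths are unions of GENCODE 44 exons. Named genes were the members, AHR, up to 3 per list and direction with the largest mean change among those passing with both constructs in 1 direction, those passing in opposite directions, and the 2 genes nearest each member in pattern; a marker and a gene near in pattern are not reported here. Alternatives were DESeq2 1.42.0, its size factors in edgeR, no filter, a mean of at least 50 counts, only the groups compared, a replicate block, each library left out, and the longest transcript as length. The code was tested on simulated data.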

Additional observations from a re-analysis of the deposited data

Results flagged for a closer look

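Between the constructs, 8 members differed by a test of the difference itself (edgeR QL, Benjamini-Hochberg adjusted), where 42.3% of all tested genes did. In shAHR#3 minus shAHR#2 on the log2 scale, the differences were 1.34 for ANKRD1, 0.49 for CCN1, 0.41 for TEAD2 (adjusted p = 5.33e-06), 0.33 for CCN2, 0.23 for TEAD4 (adjusted p = 0.026, lost in DESeq2 at 0.0702 and without shAHR#2 replicate 1 at 0.235, shAHR#2 replicate 2 at 0.052, shAHR#3 replicate 1 at 0.0753 or shAHR#3 replicate 3 at 0.0568), 0.17 for AMOTL2 (adjusted p = 3.49e-05), 0.098 for TEAD1 (adjusted p = 0.00252) and -0.53 for WWTR1. AHR itself differed by 0.19, and by 0.13 (adjusted p = 0.0604) without shAHR#3 replicate 2. The cause of these differences was not tested.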

How the results depend on the processing

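Alternatives were run for the 10 members and AHR, not for the genes of the other lists or the markers. No log2 fold change of a member or AHR that passed the test changed sign; the uncalled TEAD1 and TEAD2 differences for the mean of both constructs (-0.0083 and -0.012) did with some libraries left out, up to 0.0065 and 0.032. Of 253 log2 fold changes recomputed under other models, scalings, filters, sample sets or the replicate block, 249 kept their side of the threshold, 2 lost the call and 2 gained it; of 396 with 1 library left out, 378 kept it, 14 lost it and 4 gained it. The calls that changed belong to TEAD1, TEAD2, TEAD3, TEAD4, CCN2 and AHR; TEAD4 for the mean of both constructs gained a call without shAHR#2 replicate 3 (-0.19, edgeR adjusted p = 0.0267). The number of members higher with shAHR#3 ran from 3 to 5 with 1 library left out, and was 3 without pLKO-GFP replicate 3. With the replicate number as a block, TEAD1 with shAHR#2 gained a call (-0.057, edgeR adjusted p = 0.0401), as it did with only the groups compared (-0.056, adjusted p = 0.035), and under the block members called numbered 9 with shAHR#2, 8 with shAHR#3, 7 for the mean and 8 between constructs, beside 9406, 7844, 9243 and 6107 of all 14274 tested genes; the block changed no other member's call. Same-numbered libraries correlated at -0.113 to 0.0867 over 9 pairs, and libraries with other numbers at -0.0922 to 0.14. Of 18 best matches, 10 were to the own number. These values do not settle whether the numbers mark pairs. The main fit did not treat them as pairs, and the block gives the calls if they are. The mean of both constructs uses all groups, so restricting the samples was not run for it. Per-kilobase levels moved with the longest transcript, WWTR1 in pLKO-GFP from 26.2 to 43.4. Depth limits TEAD2, TEAD3 and TEAD4 most, at 226 to 678 reads per library.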

Other observations

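Other CCN genes and AP-1 subunits were also read. Of 4 further CCN genes, 2 had enough reads to be tested, CCN4 only through the hairpin groups, so its counts are given with no test. CCN4 (WISP1), a secreted protein of the Wnt response, had 0, 0 and 1 reads in pLKO-GFP, 45, 48 and 46 in shAHR#2 and 49, 44 and 48 in shAHR#3, and CCN3 rose by 0.69 (SE 0.13) and by 0.49 (SE 0.13). Among 7 AP-1 subunits, which bind with TEADs at enhancers, 4 rose and 2 fell with shAHR#2, and 3 rose and 1 fell with shAHR#3, where 65.8% and 54.4% of all tested genes passed in either direction. Their medians were 0.58 and 0.036, against -0.0032 and -6.9e-05 over all tested genes. JUNB rose by 0.62 (SE 0.098) and by 0.63 (SE 0.095) and FOSL2 by 0.72 (SE 0.026) and by 0.44 (SE 0.026), while FOS (-1.37 and 0.60) and JUN (0.58 and -0.18) passed in opposite directions. Of 12 SRF/MRTF genes, 11 were tested, 1 rose and 5 fell with shAHR#2, and 3 rose and 4 fell with shAHR#3, beside the same shares of all genes, with medians of -0.036 and 0.064. VCL, the focal adhesion protein vinculin, rose by 0.13 (SE 0.025) and by 0.24 (SE 0.024), and SRF fell by 0.29 (SE 0.048) and by 0.24 (SE 0.047). TAGLN, an actin-binding protein of contractile cells, fell by 1.096 (SE 0.14) and by 0.56 (SE 0.13), and MYL9, a myosin light chain, fell by 0.74 (SE 0.036) and by 0.45 (SE 0.035).

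By root mean square difference of control-centred log2 CPM over 9 libraries, among 11725 genes, the nearest in pattern to ANKRD1 were SYNPO (0.0707) and AREG (0.0935), with 3 genes within 0.1. For WWTR1 they were NT5E (0.0459) and SEC23A (0.0461), for CCN1 STAU1 (0.0304) and MCU (0.0324), and for AMOTL2 VANGL1 (0.026) and SERPINH1 (0.0393). For CCN2 they were KIF20A (0.0187) and FARP1 (0.0313), and for YAP1 ZNF706 (0.0197) and STT3A (0.0245), where 1171 genes lay within 0.1. For TEAD1, COX6C lay at 0.0279. The nearest were for TEAD2 FAM53B (0.0606) and MARVELD1 (0.0695), for TEAD3 VPS35L (0.0476) and B4GALT2 (0.0567), and for TEAD4 MYO19 (0.0416) and ZNF211 (0.0482).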
